A study of Homo sapiens with 9 samples.

Results

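The MAP kinase phosphatases examined here are 10 genes, DUSP1, DUSP2, DUSP4, DUSP5, DUSP6, DUSP7, DUSP8, DUSP9, DUSP10 and DUSP16, taken by gene symbol from a table of 58735 genes. All 10 were in the table. RNA was measured by poly(A)-selected RNA sequencing in HEK293A cells, a human embryonic kidney line, in which p65, the NF-kB subunit encoded by RELA, had been knocked out. Cells of this one p65 knockout background were transfected with a plasmid for p65 2CS, with a plasmid for p65 WT or with vector, and 24 h later all of them received 20 ng/mL TNF for 2 h. The study concerns p65 palmitoylation, and its labels do not spell out the change that 2CS stands for. Each group had 3 libraries, and every group carried the same knockout and the same TNF treatment, so no value here compares TNF with its absence. The labels do not say whether the knockout line is 1 clone. Nothing in them ties the 3 libraries to separate cultures, and p-values then measure only the spread between these libraries.

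MAP kinase phosphatases remove phosphate from both the threonine and the tyrosine of the activation loop of ERK, JNK and p38 kinases, and so turn these kinases off. DUSP1, DUSP2, DUSP4 and DUSP5 are inducible nuclear enzymes, and DUSP1 is an immediate early gene known for curbing p38 and JNK after inflammatory or growth factor stimulation. DUSP6, DUSP7 and DUSP9 are cytoplasmic enzymes with a preference for ERK, and DUSP6 is a classical feedback gene of the ERK pathway. DUSP8, DUSP10 and DUSP16 prefer JNK and p38.

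The deposited counts summed to between 17146134 and 25068515 per p65 2CS library, between 15989601 and 16507689 per p65 WT library and between 17923114 and 20162267 per vector library. RELA averaged 25480 ± 1380 CPM, reads of a gene scaled to the total of its library, in p65 2CS cells, 8988 ± 942 CPM in p65 WT cells and 67.6 ± 1.61 CPM in vector cells (SD, n = 3 each). The p65 2CS libraries thus carried more RELA RNA than the p65 WT libraries, by 1.50 ± 0.0374 on the log2 scale (fold ± SE, adjusted p = 1.4e-30), and the form of p65 and its RNA level cannot be told apart in the comparison of both forms. Of 16 nephron and neural genes known from HEK293 cells, 10, 13 and 10 averaged over 1 CPM in p65 2CS, p65 WT and vector cells, and their summed level spanned 1960 to 2020, 2110 to 2170 and 2210 to 2230 CPM. The 7 leukocyte markers summed to 5.42 to 5.64, 5.95 to 6.6 and 4.1 to 4.36 CPM in the same order of groups. Of these, 2, 2 and 1 averaged at least 1 CPM, with PTPRC at 0 in p65 WT and vector cells and CD3E at 0 in vector cells. The 10 fibroblast and endothelial markers summed to 71.9 to 76.1, 95.9 to 98.9 and 74.1 to 81.5 CPM. Of these, 4, 4 and 2 averaged at least 1 CPM, with DCN at 0 in p65 2CS and vector cells. These sums moved between groups, and their part in the results below was not tested.

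The promoter sequences of DUSP1, DUSP7, DUSP8 and DUSP16 are shown because these 4 genes carried the changes with the most reads behind them. RefSeq promoter windows (build GRCh38.p14, 250 bases before to 50 bases after a gene's start) were found for 8 of the 10 members, in 10 windows. The 250 bases before the start are given 5′ to 3′ on the gene's own strand, and capitals mark a cAMP response element (CRE, TGACGTCA) or a kB-like match (GGG, any 5 bases, then CC), searched on both strands. DUSP1 lies at chr5:172771196-172771445, DUSP7 at chr3:52056572-52056821, DUSP8 at chr11:1572272-1572521 and DUSP16 at chr12:12562864-12563113, all on the minus strand.
DUSP1: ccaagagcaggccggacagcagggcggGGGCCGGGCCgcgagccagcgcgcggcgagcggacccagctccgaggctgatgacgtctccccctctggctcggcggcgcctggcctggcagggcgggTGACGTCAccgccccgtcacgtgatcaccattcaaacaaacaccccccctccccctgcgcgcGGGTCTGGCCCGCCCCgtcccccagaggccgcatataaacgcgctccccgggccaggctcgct
DUSP7: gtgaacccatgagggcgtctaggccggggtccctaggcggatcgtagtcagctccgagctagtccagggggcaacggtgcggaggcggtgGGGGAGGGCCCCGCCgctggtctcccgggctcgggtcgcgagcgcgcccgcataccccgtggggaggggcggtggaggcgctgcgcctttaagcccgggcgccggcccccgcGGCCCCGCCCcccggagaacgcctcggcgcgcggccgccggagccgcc
DUSP8: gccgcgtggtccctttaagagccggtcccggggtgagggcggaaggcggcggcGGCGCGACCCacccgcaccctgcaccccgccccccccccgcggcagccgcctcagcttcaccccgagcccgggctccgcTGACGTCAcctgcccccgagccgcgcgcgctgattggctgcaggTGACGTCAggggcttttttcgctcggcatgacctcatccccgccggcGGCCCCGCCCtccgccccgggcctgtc
DUSP16: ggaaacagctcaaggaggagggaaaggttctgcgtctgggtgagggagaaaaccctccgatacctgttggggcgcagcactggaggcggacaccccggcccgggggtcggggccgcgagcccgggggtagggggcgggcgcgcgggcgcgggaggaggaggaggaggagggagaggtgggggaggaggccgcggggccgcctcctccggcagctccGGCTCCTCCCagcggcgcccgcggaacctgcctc

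The full CRE was found in 2 of the 8 members with a window, once in DUSP1 and at 2 places in DUSP8, while 1.65% of 35116 RefSeq windows of the same length hold it. The loose kB-like pattern was found in 8 of 8 members, and it is common, since 54.4% of all windows hold it. The shorter CRE core TGACG, which every full CRE contains, was found in DUSP1 and DUSP8 (21.2% of all windows). The TATA box TATAAA was found in DUSP1 (10.7% of all windows) and CCAAT in DUSP6, DUSP8 and DUSP10 (32.0% of all windows). The AP-1 pattern TGANTCA (6.57% of all windows) and the CArG box (1.16% of all windows) were in none of the members' windows. All 250 bases of the DUSP6 window overlap annotated exons of DUSP6 or AC024909.2, so its matches lie in exon sequence. The DUSP2 window holds 55 exon bases and a DUSP10 window holds 87. DUSP9 and DUSP10 have 2 windows each, so counts of members are not like for like with shares of single windows. A match describes the letters of a window, and no binding was measured.

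Across the family, with p65 2CS 2 of the 10 members fell against vector and 0 rose, and with p65 WT 4 fell and 1 rose. In p65 2CS cells against p65 WT cells, 2 members were higher and 1 was lower, the last (DUSP6) called in only 6 of 13 alternative processings. Calls are adjusted p-values under 0.05 from edgeR's quasi-likelihood test, adjusted over all 18195 genes tested. For p65 2CS against vector, 23.4% of all genes tested were called, 12.1% higher and 11.4% lower. For p65 WT against vector 28.8% were called, 16.4% higher and 12.5% lower, and for p65 2CS against p65 WT 31.2% were called, 13.4% higher and 17.9% lower. The members' share of calls was thus near the background for p65 2CS against vector and against p65 WT, and 5 of 10 beside 28.8% for p65 WT against vector. With library totals alone as the scaling, the split over all genes in p65 WT against vector was 2554 higher and 3659 lower, beside 2976 and 2268 with TMM scaling. The 0 members that rose with p65 2CS were also 0 at an unadjusted p under 0.05 in edgeR, and 0 with DESeq2 and with limma-voom. Without vector replicate 1, 1 member in place of 2 changed with p65 2CS. The median log2 fold of the 10 members was -0.09, -0.14 and -0.00 in the 3 comparisons, in the order p65 2CS against vector, p65 WT against vector and p65 2CS against p65 WT, beside -0.00, -0.02 and 0.00 over all genes tested. Counting genes whose libraries did not overlap between groups, 1 member was higher and 3 were lower in p65 2CS against vector, beside 18.5% and 18.1% of all genes tested. In p65 WT against vector 1 was higher and 5 were lower, beside 20.3% and 20.1%, and in p65 2CS against p65 WT 2 were higher and 1 was lower, beside 18.9% and 21.8%. The comparisons with vector share the vector libraries, and the 3 comparisons are not independent. These were bulk samples, in which fewer cells expressing a gene and less RNA per cell cannot be told apart.

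**Figure D1:**
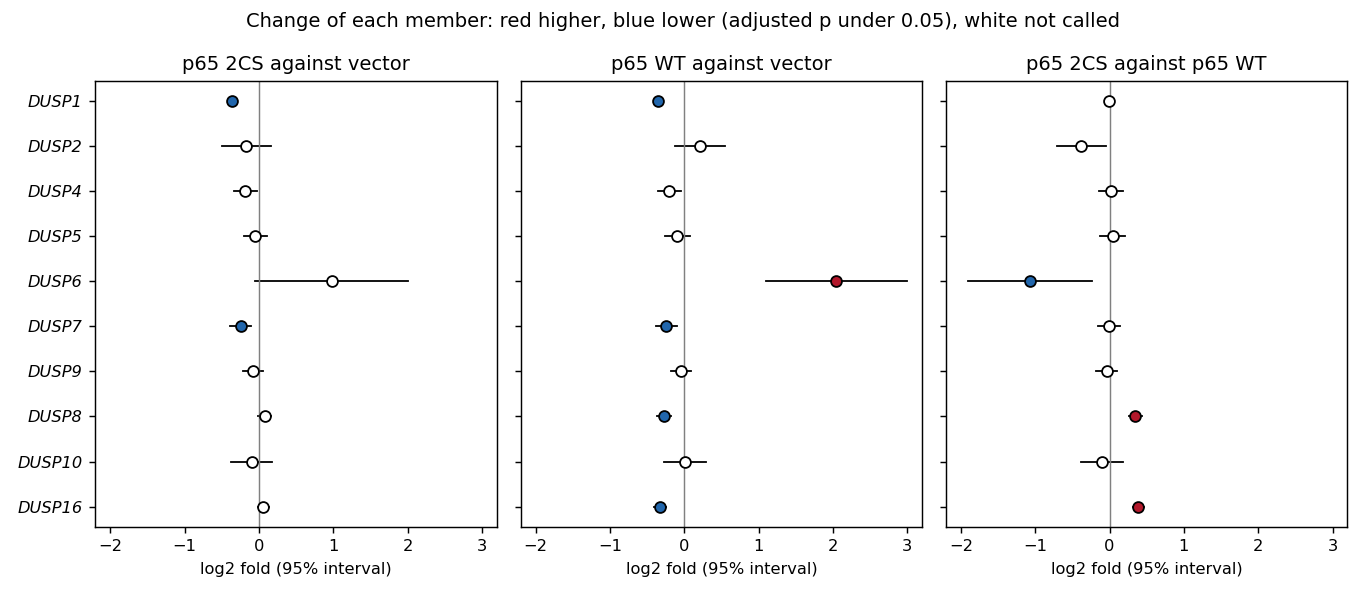
Log2 fold of each of the 10 MAP kinase phosphatase genes (rows; log2 fold on the x axis) in p65 2CS against vector, p65 WT against vector and p65 2CS against p65 WT, with 95% intervals from edgeR's quasi-likelihood fit, in red or blue where called higher or lower and in white where not called. DUSP1 and DUSP7 were called lower in both comparisons with vector, and DUSP8 and DUSP16 only in p65 WT against vector. The DUSP4 intervals also lie below 0 in both comparisons with vector, without a call. DUSP6 has the widest intervals.

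Among the inducible nuclear members, DUSP1 fell with both forms of p65, by similar amounts. DUSP1 had 317, 329 and 335 CPM in the p65 2CS libraries, 319, 331 and 337 CPM in the p65 WT libraries, and 422, 419 and 418 CPM in the vector libraries. All 6 libraries with a p65 plasmid lay below all 3 vector libraries, and the ranges of the p65 forms overlapped almost fully. In p65 2CS against vector DUSP1 fell by 0.36 on the log2 scale (SE 0.0276, adjusted p = 1.8e-13), which is 1.28-fold lower. The change was -0.35 ± 0.0279 in p65 WT against vector (log2 fold ± SE, adjusted p = 9.21e-14). Between p65 2CS and p65 WT the log2 fold of DUSP1 was -0.01 with a 95% interval of -0.06 to 0.05 (adjusted p = 0.899). Both calls against vector were made in 13 of 13 alternative processings. DUSP1 also drew 20133, 15748 and 24065 reads in the p65 2CS, p65 WT and vector groups, the most of any member, which makes it the most precisely measured of the family.

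DUSP4, a nuclear ERK and JNK phosphatase that ERK signalling itself induces, had 25.0, 22.0 and 21.6 CPM in p65 2CS libraries, 25.1, 21.7 and 20.8 CPM in p65 WT libraries, and 25.8, 25.9 and 25.9 CPM in vector libraries. The vector libraries were nearly equal and lay above all 6 others, but neither fold passed the test. The log2 fold was -0.18 ± 0.0755 for p65 2CS (adjusted p = 0.0772) and -0.20 ± 0.078 for p65 WT (adjusted p = 0.0506). Single libraries decided this: without p65 2CS replicate 7 the p65 2CS value was -0.24 (adjusted p = 0.0316), and without p65 WT replicate 4 the p65 WT value was -0.28 (adjusted p = 0.00997). Scaling by library totals alone also brought p65 WT against vector past the threshold (adjusted p = 0.0136).

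DUSP2, a nuclear phosphatase best known from activated leukocytes, was low, with 4.53, 3.77 and 5.58 CPM in p65 2CS libraries, 4.98, 6.39 and 6.54 CPM in p65 WT libraries, and 5.22, 5.38 and 4.86 CPM in vector libraries. The groups overlapped in all 3 comparisons. Between p65 2CS and p65 WT the log2 fold was -0.38 ± 0.165 (adjusted p = 0.0771). This value passed the threshold without p65 WT replicate 4 (-0.50, adjusted p = 0.0316) and without p65 2CS replicate 9 (-0.53, adjusted p = 0.0224). DUSP5, a nuclear ERK phosphatase, averaged 19.9 ± 0.673 CPM with p65 2CS, 19.4 ± 1.45 CPM with p65 WT and 20.7 ± 1.13 CPM with vector (SD, n = 3 each). Its groups overlapped, and its 95% intervals were -0.21 to 0.11 for p65 2CS against vector, -0.25 to 0.07 for p65 WT against vector and -0.12 to 0.20 between the p65 forms.

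**Figure D2:**
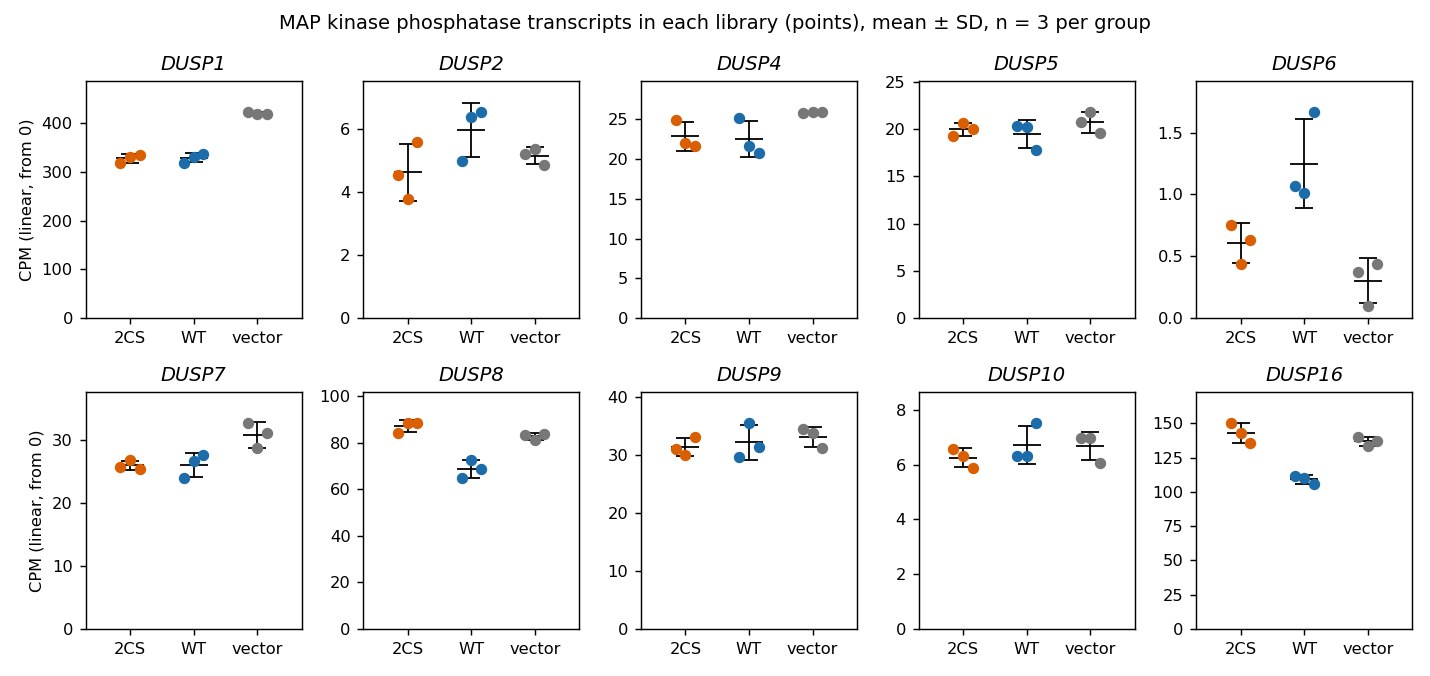
Level of each MAP kinase phosphatase gene in CPM (y axis, own scale per panel) in the 3 libraries of p65 2CS, p65 WT and vector; points are libraries and bars are means ± SD. The panels show DUSP1 and DUSP7 low in both p65 groups, DUSP8 and DUSP16 low only in p65 WT, and DUSP6 at about 1 CPM or below except in 1 library.

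Among the cytoplasmic members with a preference for ERK, DUSP7 fell with both forms of p65 by similar amounts. DUSP7 had 25.7, 26.8 and 25.3 CPM in p65 2CS libraries, 23.9, 26.6 and 27.7 CPM in p65 WT libraries, and 32.7, 28.6 and 31.0 CPM in vector libraries. No p65 library reached the lowest vector library, although p65 WT replicate 6 came within 1 CPM of it. The log2 fold was -0.24 ± 0.0694 for p65 2CS (adjusted p = 0.00811) and -0.24 ± 0.0715 for p65 WT (adjusted p = 0.00863). Both calls ended without vector replicate 1, with -0.20 for p65 2CS (adjusted p = 0.0695) and -0.20 for p65 WT (adjusted p = 0.0659), and the p65 WT call also ended without p65 WT replicate 4 (-0.18, adjusted p = 0.0863). Between the p65 forms the log2 fold was -0.00, with a 95% interval of -0.15 to 0.14.

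DUSP6 was barely expressed and rose with p65 WT. It had 0.755, 0.436 and 0.631 CPM in p65 2CS libraries (13, 11 and 12 reads), 1.07, 1.01 and 1.67 CPM in p65 WT libraries (17, 16 and 27 reads), and 0.373, 0.0977 and 0.442 CPM in vector libraries (7, 2 and 8 reads). The p65 WT libraries lay above all others, while p65 2CS and vector overlapped. The rise was 2.05 ± 0.466 on the log2 scale in p65 WT against vector (95% interval 1.10 to 2.99, adjusted p = 0.000607), and the fold was 0.98 ± 0.508 in p65 2CS against vector (adjusted p = 0.172). In p65 2CS against p65 WT the log2 fold was -1.07 ± 0.41 (adjusted p = 0.0429), a call that was lost in 7 of 13 alternative processings. Those 7 included leaving out p65 2CS replicates 7, 8 and 9 in turn (adjusted p = 0.0526, 0.196 and 0.0812) and p65 WT replicates 4 and 6 (0.0584 and 0.246), the fit with no filter on low counts (0.0517) and DESeq2 (0.0933). DUSP6 passed the filter on low counts through its p65 WT libraries, 3 of which exceeded the limit of 0.558 CPM against 2 p65 2CS and 0 vector libraries. In the fit of p65 2CS and vector alone it was not tested. That it was tested thus depended on the group where it is high.

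The 3 tested genes whose pattern over the 9 libraries lay closest to that of DUSP6, by Euclidean distance between gene-centred log2 CPM, were GRIP2 (0.678), FCMR (0.736) and ETV7 (0.877). ETV7, an ETS family transcription factor, had 2.80 ± 0.34 CPM with p65 2CS, 5.36 ± 1.33 CPM with p65 WT and 1.39 ± 0.246 CPM with vector (SD, n = 3 each). FCMR was about as low as DUSP6, at 1.21 ± 0.465 CPM with p65 WT and 0.286 ± 0.163 CPM with vector. GRIP2 was low but above DUSP6, at 2.60 ± 0.861 CPM with p65 WT and 0.765 ± 0.367 CPM with vector. DUSP9, the third ERK-preferring member, averaged 31.4 ± 1.54 CPM with p65 2CS, 32.2 ± 3.05 CPM with p65 WT and 33.2 ± 1.75 CPM with vector. Its libraries overlapped in all 3 comparisons, with 95% intervals of -0.22 to 0.05, -0.18 to 0.10 and -0.18 to 0.10 on the log2 scale.

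Among the members that prefer JNK and p38, DUSP8 and DUSP16 fell with p65 WT, passed no test with p65 2CS against vector, and differed between the p65 forms. DUSP16, which shuttles between nucleus and cytoplasm, had 150, 143 and 136 CPM in p65 2CS libraries, 112, 110 and 106 CPM in p65 WT libraries, and 140, 134 and 137 CPM in vector libraries. The p65 WT libraries were the 3 lowest of the 9, and those of p65 2CS and vector overlapped. The log2 fold was 0.06 ± 0.0365 for p65 2CS against vector (95% interval -0.01 to 0.14, adjusted p = 0.241) and -0.33 ± 0.0384 for p65 WT against vector (adjusted p = 4.31e-09). In p65 2CS against p65 WT, DUSP16 was higher by 0.39 ± 0.0381 on the log2 scale, or 1.31-fold (adjusted p = 5.74e-11).

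DUSP8, first described in brain and heart, had 84.4, 88.7 and 88.5 CPM in p65 2CS libraries, 64.7, 72.6 and 68.6 CPM in p65 WT libraries, and 83.5, 81.2 and 83.7 CPM in vector libraries. Again the p65 WT libraries were the 3 lowest, and the p65 2CS libraries lay just above the vector libraries without overlap. The log2 fold was 0.08 ± 0.0427 for p65 2CS against vector (95% interval -0.01 to 0.16, adjusted p = 0.206) and -0.27 ± 0.0451 for p65 WT against vector (adjusted p = 6.1e-06). In p65 2CS against p65 WT, DUSP8 was higher by 0.35 ± 0.0446, or 1.27-fold (adjusted p = 3.83e-08). The calls on DUSP8 and DUSP16 were made in 13 of 13 alternative processings each, with log2 folds between p65 2CS and p65 WT of 0.31 to 0.39 for DUSP8 and 0.35 to 0.42 for DUSP16. DUSP10, which prefers p38 and JNK, averaged 6.25 ± 0.34 CPM with p65 2CS, 6.72 ± 0.703 CPM with p65 WT and 6.68 ± 0.527 CPM with vector, and its groups overlapped in all 3 comparisons.

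DUSP8 shares its locus with the antisense gene KRTAP5-AS1, which had 444 reads over the 9 libraries beside 13400 for DUSP8. Whether counting used strand was not given in the sources used here, so reads of this pair may not be fully separate. KRTAP5-AS1 moved in the same directions, with a log2 fold of -0.90 ± 0.238 in p65 WT against vector (adjusted p = 0.00311) and 0.77 ± 0.239 in p65 2CS against p65 WT (adjusted p = 0.0108). The second of these calls ended without p65 WT replicate 5 (0.51, adjusted p = 0.12). The pseudogene DUSP8P5 had 62 to 124 reads per library and was called in no comparison. The genes that overlap DUSP1, DUSP6 and DUSP16 on the opposite strand had 26, 3 and 13 reads in all.

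Levels were compared between members only after division by the gene length in the deposited table. DUSP1 was far above the others, with 162 ± 4.43 CPM per kb in p65 2CS cells, 163 ± 4.58 CPM per kb in p65 WT cells and 208 ± 1.12 CPM per kb in vector cells. DUSP16 came next with 25.0 ± 1.29, 19.1 ± 0.566 and 23.9 ± 0.585 CPM per kb in the same groups, followed in each group by DUSP8, DUSP9, DUSP5, DUSP7, DUSP4, DUSP2, DUSP10 and DUSP6. This order of mean levels was the same in all 3 groups. Neighbours whose libraries overlapped were DUSP2 and DUSP10 in p65 2CS cells, and DUSP4 and DUSP2, and DUSP2 and DUSP10, in p65 WT cells, while in vector cells no neighbours overlapped. At the bottom, DUSP6 had 0.131 ± 0.0347, 0.27 ± 0.0782 and 0.0656 ± 0.0393 CPM per kb in p65 2CS, p65 WT and vector cells.

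**Figure D3:**
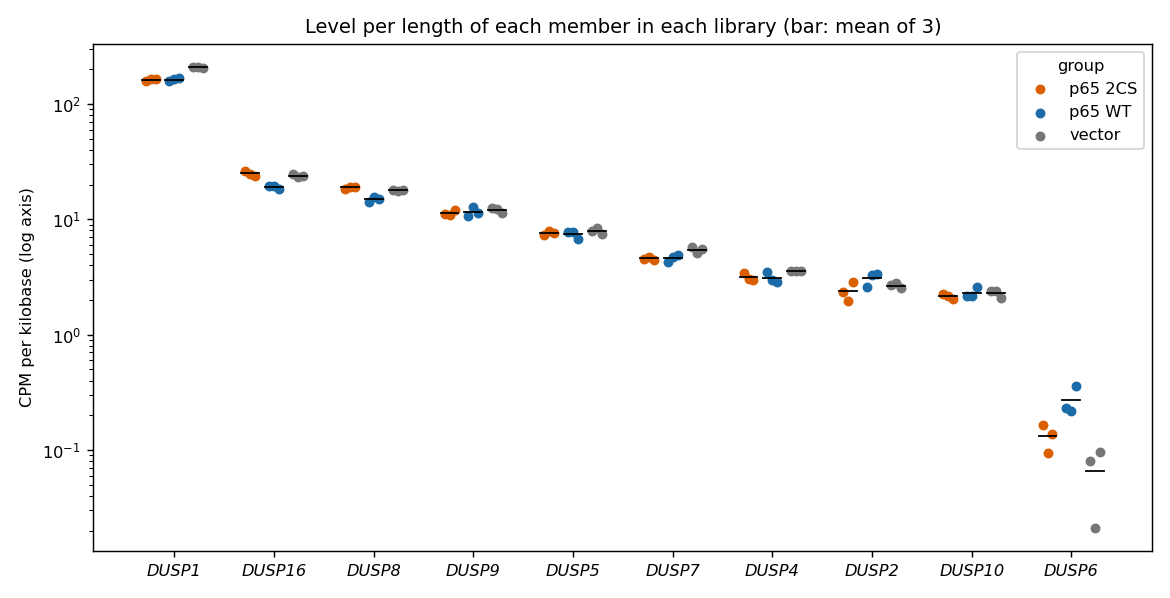
Level of each member per length (CPM per kb, log axis) in p65 2CS, p65 WT and vector libraries, with the members in order of level. DUSP1 stands above 150 CPM per kb in every library, and DUSP6 is the lowest member in every group.

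Summed over the 10 members, the level per length was 237 ± 3.94 CPM per kb in p65 2CS cells, 229 ± 5.84 in p65 WT cells and 284 ± 2.68 in vector cells (SD, n = 3 each). Most of it was DUSP1, at 68.3%, 71.0% and 73.3% of the sum in the same groups. The 4 inducible nuclear members together had 170 to 179, 172 to 180 and 221 to 223 CPM per kb in p65 2CS, p65 WT and vector cells, so that both p65 groups lay below vector. The 3 members that prefer JNK and p38 had 44.9 to 46.8 CPM per kb in p65 2CS cells, 35.7 to 37.2 in p65 WT cells and 43.3 to 45.0 in vector cells, and here p65 WT alone stood apart. Their share of the sum was 19.4% ± 0.722 in p65 2CS cells, 15.8% ± 0.324 in p65 WT cells and 15.6% ± 0.209 in vector cells. The 3 cytoplasmic members that prefer ERK had 15.7 to 16.5, 15.2 to 17.8 and 16.8 to 18.3 CPM per kb. With CPM not divided by length, the share of DUSP1 was 48.9%, 53.0% and 55.1%, and that of the members that prefer JNK and p38 was 35.3%, 29.7% and 29.7%, in p65 2CS, p65 WT and vector cells. No test was run on these sums.

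**Figure D4:**
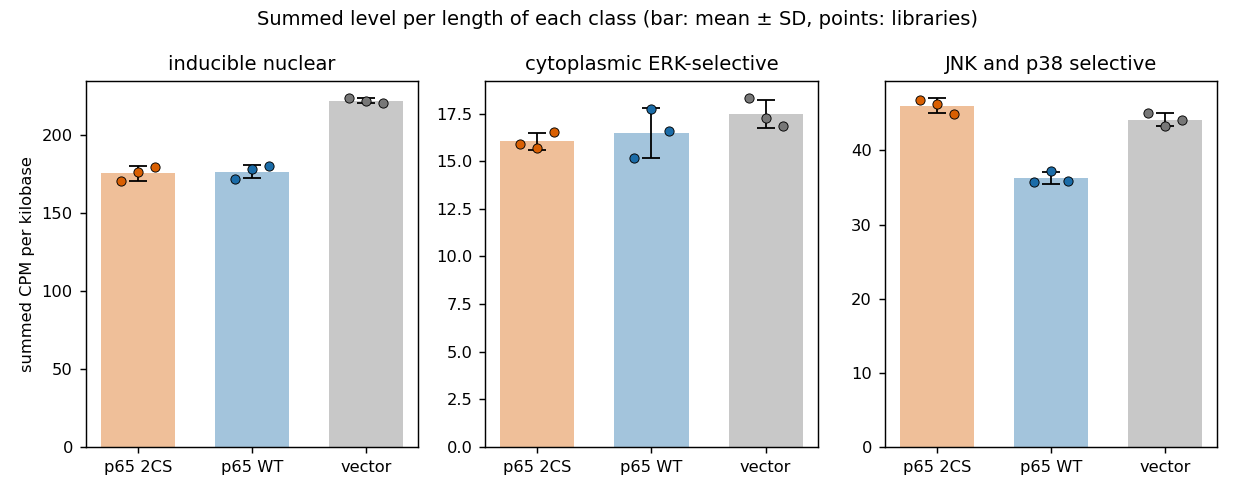
Summed level per length (CPM per kb) of the inducible nuclear members, the cytoplasmic ERK-preferring members and the members that prefer JNK and p38, per library in p65 2CS, p65 WT and vector. The nuclear sum, mostly DUSP1, is 170 to 180 CPM per kb in both p65 groups and 221 to 223 in vector, and the JNK and p38 sum is 35.7 to 37.2 CPM per kb in p65 WT and above 43 in the others.

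The other genes of the pathway were taken from lists by role. In p65 2CS against vector, p65 WT against vector and p65 2CS against p65 WT, 23.4%, 28.8% and 31.2% of all genes tested were called. In that order, the MAP kinases had 28.6%, 21.4% and 14.3% called, and the MAP kinase kinases 14.3%, 42.9% and 57.1%. The MAP3 kinases and adaptors had 47.6%, 47.6% and 33.3%, and the scaffolds 0%, 57.1% and 85.7%. The shares were 0%, 36.4% and 18.2% for MAPK-activated kinases and 42.1%, 63.2% and 52.6% for ERK feedback and output genes. Of 14 MAP kinases tested, 4 fell and 0 rose in p65 2CS against vector, 3 fell and 0 rose in p65 WT against vector, and 2 fell and 0 rose in p65 2CS against p65 WT. The 0 that rose were 1, 3 and 0 at an unadjusted p under 0.05 in edgeR, and 0 with DESeq2 and with limma-voom in each comparison. In p65 WT against vector, however, 2 rose with DESeq2 size factors in edgeR, with RELA left out and in the fit of the 2 groups alone. In the same comparison 1 rose without p65 WT replicate 4 or 5 or vector replicate 3. Without p65 WT replicate 4, 1 in place of 3 fell. MAPK9, 1 of the 3 that fell, was also lost without p65 WT replicate 5 or vector replicate 1 or 3 (adjusted p = 0.0508, 0.133 and 0.0851). Its call ended too with DESeq2 (0.109), DESeq2 size factors in edgeR (0.0595), RELA left out (0.0751), no filter (0.0811) and the 2 groups alone (0.068). MAPK8, which encodes JNK1, averaged 55.6 ± 0.186 CPM with p65 2CS, 56.5 ± 1.5 CPM with p65 WT and 67.6 ± 4.09 CPM with vector, and fell in both comparisons with vector (log2 fold -0.28 and -0.26, adjusted p = 2.29e-05 and 6.77e-05). The 2 MAP kinases that fell between the p65 forms, MAPK7 and MAPK12, became 1 without p65 WT replicate 5 or p65 2CS replicate 7 or 9. They became 0 without p65 2CS replicate 8, and 1 with library totals alone, with no filter on low counts and with DESeq2. Without p65 WT replicate 4 the count stayed at 2, but MAPK7 was lost (adjusted p = 0.0988) and MAPK4 was called lower (adjusted p = 0.0336). Of 7 MAP kinase kinases, 1 fell and 0 rose with p65 2CS against vector (edgeR, 0 also at an unadjusted p under 0.05 and with DESeq2 and limma-voom), and 2 rose and 1 fell with p65 WT. The 1 that fell with p65 2CS, MAP2K1, was lost without p65 2CS replicates 7 or 9 or vector replicates 1 or 3, and also with DESeq2 (adjusted p = 0.106), with DESeq2 size factors in edgeR (0.0597) and with no filter (0.073). The 1 that fell with p65 WT became 0 without p65 WT replicate 4 and 2 with library totals alone. In p65 2CS against p65 WT, 2 were higher and 2 lower, and the 2 higher became 0 without p65 WT replicate 4 and 1 without p65 2CS replicate 7, 8 or 9. MAP2K3, which phosphorylates p38, averaged 76.0 ± 0.949 CPM with p65 2CS, 123 ± 5.96 CPM with p65 WT and 71.9 ± 1.12 CPM with vector. It rose with p65 WT by 0.77 ± 0.0412 (adjusted p = 3.2e-19) and was lower with p65 2CS than with p65 WT (-0.69 ± 0.0407, adjusted p = 1.31e-17).

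Upstream of these, 21 MAP3 kinases and adaptors were tested, of which 8 rose and 2 fell in p65 2CS against vector, 6 rose and 4 fell in p65 WT against vector, and 4 were higher and 3 lower in p65 2CS against p65 WT. The 2 that fell with p65 2CS became 1 without p65 2CS replicate 7 or vector replicate 2. The 4 that fell with p65 WT became 1 without p65 WT replicate 6 and 2 without vector replicate 2, and the 4 higher between the p65 forms became 2 without p65 2CS replicate 9. MAP3K8, the kinase TPL2 that links NF-kB signalling to ERK, averaged 27.1 ± 2.43 CPM with p65 2CS, 37.2 ± 1.87 CPM with p65 WT and 14.3 ± 0.721 CPM with vector. Its log2 fold was 0.92 ± 0.0782 for p65 2CS and 1.38 ± 0.0773 for p65 WT against vector (adjusted p = 3.15e-12 and 1.42e-18), and -0.46 ± 0.0705 between the p65 forms (adjusted p = 1.33e-06). TAB2, an adaptor of the kinase TAK1, rose with both forms, by 0.34 ± 0.0351 with p65 2CS and 0.55 ± 0.0354 with p65 WT (adjusted p = 5.71e-10 and 1.09e-16). Of 7 scaffolds tested, 0 were called in p65 2CS against vector (edgeR, 3 at an unadjusted p under 0.05, 0 with DESeq2 and with limma-voom, and 1 called without vector replicate 2). In p65 WT against vector 1 scaffold rose and 3 fell, and in p65 2CS against p65 WT 4 were higher and 2 lower, 1 of them lower without p65 2CS replicate 8. The 1 that rose with p65 WT was KSR1 (log2 fold 0.49 ± 0.0736, adjusted p = 9.23e-07). The 2 lower in p65 2CS than in p65 WT cells were KSR1 (-0.33, adjusted p = 0.000348) and LAMTOR3 (-0.25, adjusted p = 0.00527). LAMTOR3 was the call lost without p65 2CS replicate 8 (adjusted p = 0.0661). The list also holds 4 JNK scaffolds, all tested. Against vector, the p65 2CS log2 folds of MAPK8IP1, MAPK8IP2, MAPK8IP3 and SPAG9 were -0.12, 0.05, 0.04 and 0.03, none of them called. In p65 WT against vector they were -0.38, -0.07, -0.13 and -0.16 (adjusted p = 6.91e-06, 0.261, 0.000656 and 4.85e-05). Between p65 2CS and p65 WT, a comparison that uses the same p65 WT libraries, they were 0.26, 0.12, 0.17 and 0.19 (adjusted p = 0.00168, 0.0375, 1.1e-05 and 3.24e-06). The call on MAPK8IP2 was lost without p65 WT replicates 4 or 5 or p65 2CS replicates 8 or 9 (adjusted p = 0.101, 0.128, 0.151 and 0.0691), and in 3 other alternatives.

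Among genes downstream of MAP kinases, 11 MAPK-activated kinases were tested, and 0 were called in p65 2CS against vector (edgeR, 0 at an unadjusted p under 0.05, 0 with DESeq2 and with limma-voom, and 1 called without p65 2CS replicate 8). With p65 WT against vector 3 rose and 1 fell. The 1 that fell, RPS6KA5 (log2 fold -0.24, adjusted p = 0.0199), was lost without p65 WT replicates 5 or 6 or vector replicate 2 (adjusted p = 0.0508, 0.0759 and 0.104), with no filter (0.0565) and with DESeq2 (0.0677). Of the same kinases 2 were lower and 0 higher in p65 2CS against p65 WT (edgeR, 1 higher at an unadjusted p under 0.05, 0 with DESeq2 and with limma-voom). RPS6KA2, a ribosomal S6 kinase activated by ERK, averaged 16.1 ± 0.454 CPM with p65 2CS, 22.6 ± 1.45 CPM with p65 WT and 16.9 ± 0.544 CPM with vector. Of 19 ERK feedback and output genes, 4 rose and 4 fell with p65 2CS, 5 rose and 7 fell with p65 WT, and 3 were higher and 7 lower in p65 2CS against p65 WT. SPRY4, a Sprouty inhibitor of ERK signalling, averaged 3.94 ± 0.8 CPM with p65 2CS, 9.81 ± 0.954 CPM with p65 WT and 3.55 ± 0.384 CPM with vector. It rose with p65 WT by 1.46 ± 0.159 (adjusted p = 5.35e-10), against 0.17 ± 0.172 with p65 2CS (adjusted p = 0.545), and was lower in p65 2CS than in p65 WT cells (-1.30 ± 0.155, adjusted p = 7.13e-09). The other Sprouty genes did not all share this pattern. SPRY1 was higher in p65 2CS than in p65 WT cells (log2 fold 0.64 ± 0.0812, adjusted p = 2.76e-08). SPRY2 was lower in every p65 2CS and p65 WT library than in every vector library. SPRY3, like SPRY4, was higher in every p65 WT library than in every p65 2CS or vector library. EGR1, an immediate early transcription factor, fell with both forms, with 57.6 ± 2.3 CPM in p65 2CS, 65.9 ± 4.93 CPM in p65 WT and 86.2 ± 2.96 CPM in vector cells (log2 fold -0.58 and -0.39, adjusted p = 1.68e-12 and 2.55e-08). IER3, an early gene that NF-kB also induces, rose with both forms, with 85.5 ± 3.91, 98.8 ± 1.67 and 53.1 ± 2.24 CPM in p65 2CS, p65 WT and vector cells (log2 fold 0.69 and 0.90, adjusted p = 1.49e-15 and 5.99e-20).

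**Figure D5:**
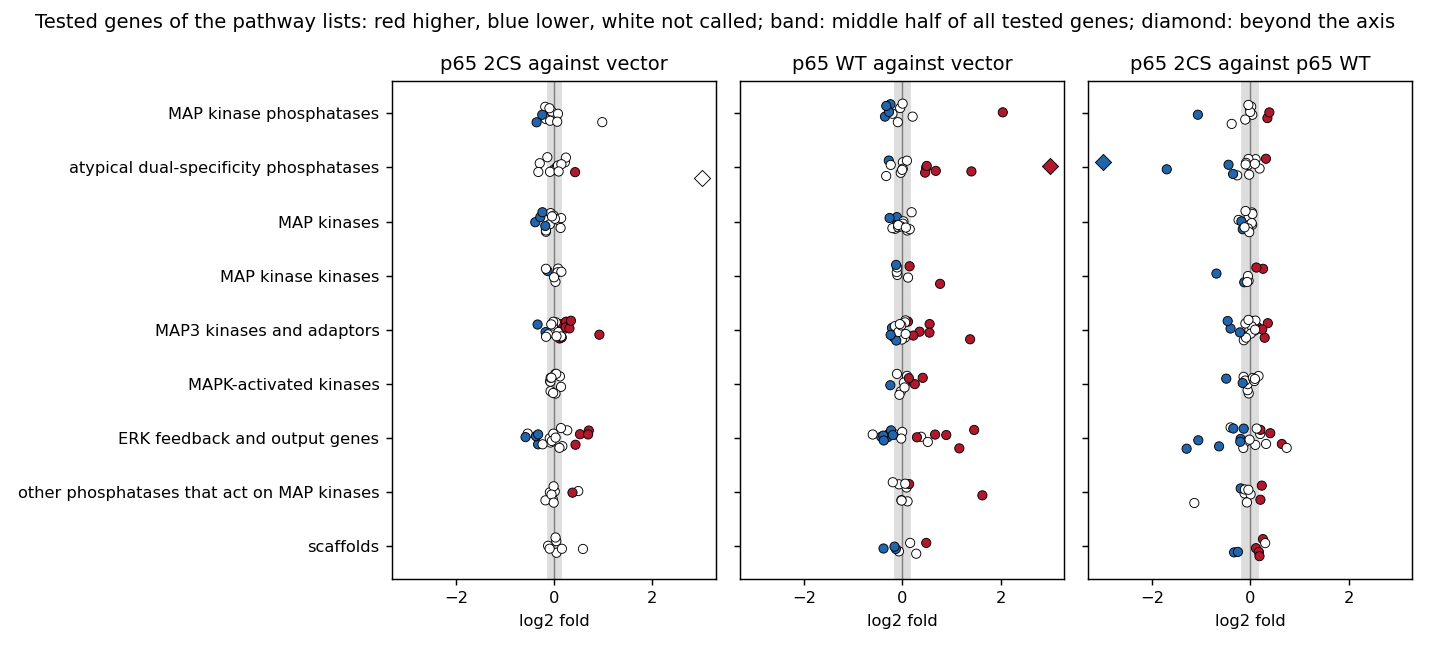
Log2 fold (x axis) of each tested gene in the lists of the MAP kinase pathway, by list, for p65 2CS against vector, p65 WT against vector and p65 2CS against p65 WT; points are genes, red and blue points passed the threshold as higher and lower, white points did not, and diamonds mark DUSP27, whose fitted fold lies beyond the axis and is no bound. The MAP kinase list has called points below 0 only. They are 28.6%, 21.4% and 14.3% of its genes, beside 23.4%, 28.8% and 31.2% of all genes tested. The scaffold list has 0 called points in p65 2CS against vector and 6 of 7 in p65 2CS against p65 WT.

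Among other phosphatases and related genes, 14 from a list of atypical dual-specificity phosphatases, most of which lack the kinase-binding domain of the family, were tested. Of these 1 rose and 0 fell in p65 2CS against vector (edgeR, 0 lower also at an unadjusted p under 0.05 and with DESeq2 and limma-voom), and 5 rose and 1 fell in p65 WT against vector. The 1 that rose with p65 2CS, DUSP19, was lost without p65 2CS replicates 7 or 8 or vector replicates 1 or 2. The 1 that fell with p65 WT became 2 without vector replicate 2. DUSP23 and DUSP27, among those that rose with p65 WT, passed the filter on low counts only through that group, where they are high. No p65 2CS or vector library of either gene exceeded the limit of 0.558 CPM. The rise of DUSP23 was lost without vector replicates 1 or 3 or p65 WT replicates 4 or 6, and with DESeq2 (adjusted p = 0.0507). In p65 2CS against p65 WT 1 was higher and 4 lower, DUSP23 and DUSP27 among the lower. These became 2 higher without p65 WT replicate 5 and 2 lower without p65 2CS replicate 8. In the order p65 2CS against vector, p65 WT against vector and p65 2CS against p65 WT, 7.14%, 42.9% and 35.7% of this list were called. Over all genes tested it was 23.4%, 28.8% and 31.2%. DUSP22, known to act in the JNK pathway, averaged 25.0 ± 1.27 CPM with p65 2CS, 31.9 ± 0.962 CPM with p65 WT and 22.5 ± 1.06 CPM with vector, with a log2 fold of 0.50 ± 0.0702 for p65 WT against vector (adjusted p = 2.27e-07) and -0.35 ± 0.0689 between the p65 forms (adjusted p = 7.98e-05). DUSP27 had 3 reads in the p65 2CS group, 89 in the p65 WT group and 0 in the vector group. With the vector group set to a floor of 3 reads over the group, its level was at least 35.5-fold higher in p65 WT than in vector cells, and the ratio of p65 2CS to p65 WT was 0.0263 (95% counting interval 0.0053 to 0.0793, which covers counting error only). Of 9 other phosphatases that act on MAP kinases, 1 rose and 0 fell with p65 2CS, 2 rose and 0 fell with p65 WT, and 2 were higher and 1 lower in p65 2CS against p65 WT. Their called share was 11.1%, 22.2% and 33.3% in that order. The 0 that fell were 1 in each comparison with vector at an unadjusted p under 0.05 in edgeR, and 0 with DESeq2 and with limma-voom. In p65 WT against vector PPM1L was called lower without p65 WT replicate 5 (-0.30, adjusted p = 0.00585) and with library totals alone (-0.24, adjusted p = 0.0216). The 2 that rose with p65 WT became 1 without p65 WT replicate 4 or 5 or vector replicate 1 or 3, with library totals alone and in the fit of the 2 groups alone. They were PPM1D and PTPN5. PTPN5 had 6, 7 and 11 reads in p65 2CS libraries, 19, 8 and 15 in p65 WT libraries and 1, 8 and 7 in vector libraries. No vector library of PTPN5 exceeded 0.558 CPM, so it passed the filter mostly through p65 WT libraries, where it is high. Its call was lost without p65 WT replicate 4 or 6 or vector replicate 1 (adjusted p = 0.116, 0.0529 and 0.124). Between the p65 forms the 2 higher became 1 when p65 2CS replicate 8 or 9 or p65 WT replicate 4 or 6 was left out, when RELA was left out, with DESeq2 and in the fit of the 2 groups alone, and the 1 lower became 2 without p65 WT replicate 5. PPM1D, a stress-induced phosphatase that acts on p38, averaged 85.1 ± 4.54 CPM with p65 2CS, 72.6 ± 1.36 CPM with p65 WT and 65.9 ± 1.75 CPM with vector. Its log2 fold was 0.37 ± 0.0446 for p65 2CS (adjusted p = 2.1e-08) and 0.14 ± 0.0465 for p65 WT (adjusted p = 0.0201), the second of which was lost without p65 WT replicate 5 or vector replicate 3 and with library totals alone (adjusted p = 0.0773, 0.099 and 0.113).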

How the data were processed

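RNA of 9 libraries was sequenced after poly(A) selection, and the submitters' processing notes name HISAT2 2.0.5. Which counter, strand setting and build were used is not given in the sources used here. Raw read counts per gene, with symbols, positions and lengths, were deposited by the authors. Libraries were scaled by TMM, genes were filtered with filterByExpr (minimum count 10, 18195 of 58735 genes tested), and 1 edgeR 4.0.16 quasi-likelihood model (R 4.3.3) over all 9 libraries gave the 3 comparisons, with Benjamini-Hochberg adjustment over all genes tested and a threshold of 0.05. SEs follow from the test's F value. CPM uses TMM-scaled totals. The code was tested on simulated data. Alternatives were DESeq2 1.42.0, limma-voom (limma 3.58.1), other scalings, no filter, the 2 groups alone, and each library left out. Replicates differed by more than sampling noise (chi-square per degree of freedom 1.88 to 2.53). Members, gene lists and motifs were chosen with earlier results of these data known. All 10 members are named, RELA once, and the 3 nearest genes of members with a called log2 fold of at least 1. List genes were picked from the up to 3 called genes with the largest fold per list and comparison, at a mean of at least 1 CPM. Not all genes eligible in this way are named, and a named gene need not have the largest fold of its list. MAPK8IP2, MAPK8IP3, DUSP23, PTPN5, SPRY2 and SPRY3 were named after their values were seen. So were PPM1L in p65 WT against vector and MAPK4 in p65 2CS against p65 WT. Protein sequences were not analysed here.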

Additional observations from a re-analysis of the deposited data

Results flagged for a closer look

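The effects of both p65 forms against vector differed for 3 members, by the test of p65 2CS against p65 WT. DUSP16 differed by 0.387 on the log2 scale, with a fold of 0.06 ± 0.0365 for p65 2CS and -0.33 ± 0.0384 for p65 WT against vector, higher in 3 of 3 p65 2CS libraries than in every p65 WT library. DUSP8 differed by 0.347, with a fold of 0.08 ± 0.0427 for p65 2CS and -0.27 ± 0.0451 for p65 WT, again without overlap between the p65 forms. DUSP6 differed by -1.07, with a fold of 0.98 ± 0.508 for p65 2CS and 2.05 ± 0.466 for p65 WT, on 36 reads in p65 2CS and 60 in p65 WT cells. That difference is the least firm of the 3: DUSP6 passed the filter on low counts through its p65 WT libraries, where it is high, and the call (adjusted p = 0.0429) was lost in 7 of 13 alternatives, with no filter (0.0517) and with DESeq2 (0.0933) among them. RELA RNA differed between the p65 forms as well, at 25480 ± 1380 CPM with p65 2CS and 8988 ± 942 CPM with p65 WT, and its part in these differences cannot be told apart from that of the form.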

How the results depend on the processing

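No paired analysis was possible because the replicate numbers are 7 to 9, 4 to 6 and 1 to 3 in the p65 2CS, p65 WT and vector groups and are shared by no groups. No member fold that was called changed sign in any alternative. With each library left out in turn, the members changed numbered 1 to 3 in p65 2CS against vector, with 1 without vector replicate 1. Member calls that 1 library or setting ended are given in the report, while list calls are given only in part. With each library left out, 5 to 7 ERK feedback and output genes fell in p65 WT against vector, beside 7 with all libraries. In p65 2CS against p65 WT 2 to 3 of them were higher and 5 to 7 lower, beside 3 and 7. The MAP3 kinases and adaptors that rose with p65 2CS numbered 6 to 7, beside 8. The atypical phosphatases that rose with p65 WT numbered 4 to 5, beside 5. DUSP6 could not be tested in the fit of p65 2CS and vector alone, which tested 9 members. Scaling by library totals alone gave 6 members changed in p65 WT against vector (1 higher, 5 lower). Over all genes that scaling gave 3115 higher and 2815 lower in p65 2CS against p65 WT, beside 2431 and 3254 with TMM, and leaving RELA out gave 3191 and 1851 in p65 WT against vector, beside 2976 and 2268. DUSP6 rests on 2 to 27 reads per library, and depth limits DUSP10 too, whose 95% interval of -0.27 to 0.29 in p65 WT against vector includes the value of -0.27 seen for DUSP8.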
